A study of Bos taurus with 3 samples.

Results

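The small leucine-rich proteoglycans examined here were 8 genes, taken by symbol from the gene lists of the deposited matrices: DCN, BGN, ASPN, LUM, FMOD, PRELP, OMD and OGN, of 21861 genes listed. All 8 had UMIs in every library and each symbol matched 1 gene. The cells were cultured stromal cells of Bos taurus, grown from the bone marrow, the peripheral blood and the adipose tissue of 1 healthy Holstein-Frisian cow in its first lactation. All cultures were wild type (WT) and untreated, and carry the labels BM-MSC, PB-MSC and AT-MSC. They grew in DMEM of low glucose that held 30% FBS until colonies could be seen. Each tissue gave 1 culture and 1 library, made with the 10x 3′ v3.1 chemistry, so that culture, library and tissue cannot be told apart and no comparison between tissues has a test. Intervals below are exact 95% intervals for counting error only.

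Small leucine-rich proteoglycans are secreted matrix proteins built from a run of leucine-rich repeats, most of which bind collagen fibrils and set how thick and how evenly spaced the fibrils become. Class I holds decorin, biglycan and asporin, of which decorin and biglycan carry chondroitin or dermatan sulfate chains. Class II holds lumican, fibromodulin, PRELP and osteomodulin, several of which carry keratan sulfate or sulfated tyrosines, and class III holds osteoglycin. In connective tissue they are made mainly by fibroblasts, stromal cells and bone-forming cells, and several of them also bind TGF-beta or BMP ligands.

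Kept cells numbered 9281 from bone marrow, 3192 from blood and 6088 from adipose tissue. Their median depth was 9096 UMIs in bone marrow, 24884 in blood and 14391 in adipose tissue. Between 4 and 10 cell barcodes were shared by any 2 of the libraries. Within each library, clusters were named by markers that did not include the 8 genes. Stromal-like clusters held 8302 bone marrow, 3036 blood and 6049 adipose cells. Of 18 listed stromal markers, 16 were found, and 11 or 12 reached 50 UMIs per 1000000 UMIs (CPM) in the summed UMIs of these cells. The labelled cell type thus had its markers in the summed UMIs of the stromal-like clusters, which held most cells of each culture. This count does not by itself separate the classes. It was 3 in the macrophage-like bone marrow cluster named next, but 12 in the macrophage-like blood cluster and 11 in the endothelial-like adipose cluster. In a stromal-like adipose cluster of 23 cells it was 6. Bone marrow also held 513 macrophage-like cells and 466 cells with both macrophage and stromal genes, blood held 156 macrophage-like cells, and adipose tissue held 39 endothelial-like cells. The 20 macrophage markers summed to 38.4 CPM in the stromal-like cells of bone marrow, 97.2 CPM in those of blood and 18.8 CPM in those of adipose tissue.

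Every member was far below its stromal-like level where bone marrow cells were macrophage-like. In these 513 macrophage-like bone marrow cells, DCN stood at 4.36 CPM (interval 2.44 to 7.20), OMD at 0.873 CPM and ASPN at 0 of all UMIs. After every cell was thinned to 3000 UMIs, DCN had a UMI in 1.17% of these macrophage-like cells, against 68.8% of the stromal-like bone marrow cells. The 156 macrophage-like blood cells did not show this, with DCN at 360 CPM against 562 CPM in stromal-like blood cells, BGN at 402 against 534 CPM and PRELP at 29.9 against 45.2 CPM. At a finer clustering (resolution 1.0), used for this check after the data were seen, 81 of them were called mixed and 75 blood cells remained macrophage-like, with DCN at 7.30 CPM, OMD and ASPN at 0, and BGN at 59.6 CPM (44.1 to 78.8). Those 75 cells held 49 UMIs of BGN and 6 of DCN. Free RNA of the blood library, from barcodes of 10 to 100 UMIs, held BGN at 498 CPM and DCN at 369 CPM. The part of free RNA in the levels of those 75 cells was not tested. In the 39 endothelial-like adipose cells, BGN reached 149 CPM (115 to 189), beside 151 CPM in the stromal-like adipose cells, while DCN stood at 110 CPM and ASPN and OMD had no UMI. BGN in the endothelial-like cells thus lay within counting error of the stromal level, on 65 UMIs. Before thinning, BGN had a UMI in 20 of these 39 cells and DCN in 7. Free RNA of the adipose library held BGN at 222 CPM and DCN at 318 CPM. The part of free RNA in the endothelial-like levels was not tested.

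Levels are given over all kept cells as CPM. A UMI marks 1 captured transcript at its 3′ end and is not divided by length, so each gene is compared between libraries and the genes are not ranked against each other. The 8 genes together made 1687 CPM in bone marrow, 1946 CPM in blood and 850 CPM in adipose tissue. A gene is called apart between 2 libraries at a CPM ratio of 2 or more, where the higher level is not under 50 CPM.

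Among class I, decorin (DCN), which binds collagen and TGF-beta, had the narrowest range of the 8 between cultures. It stood at 443 CPM in bone marrow, 553 CPM in blood and 376 CPM in adipose tissue. Its largest ratio was 1.47 (1.45 to 1.49), in blood over adipose tissue, which is short of the 2-fold rule. Biglycan (BGN), which binds collagen and can also act on toll-like receptors, stood at 440 CPM in bone marrow, 528 CPM in blood and 151 CPM in adipose tissue. It was 2.91-fold (2.85 to 2.96) higher in bone marrow than in adipose tissue and 3.49-fold (3.43 to 3.56) higher in blood than in adipose tissue, while blood over bone marrow was 1.202-fold. Asporin (ASPN), which takes its name from a stretch of aspartate and is known to bind TGF-beta and collagen, ran the other way. Its level was 10.1 CPM in bone marrow, 33.0 CPM in blood and 45.1 CPM in adipose tissue, 4.47-fold (4.17 to 4.79) higher in adipose tissue than in bone marrow but under the 50 CPM minimum. The adipose culture thus had decorin near the level of the other cultures, lower biglycan and higher asporin.

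Among class II, lumican (LUM) and fibromodulin (FMOD), keratan sulfate proteoglycans that share binding sites on collagen, were both lowest in adipose tissue. LUM stood at 426 CPM in bone marrow, 362 CPM in blood and 98.96 CPM in adipose tissue, and the bone marrow and blood levels differed 1.18-fold. FMOD stood at 122 CPM in bone marrow, 325 CPM in blood and 25.9 CPM in adipose tissue, so that all 3 libraries were apart. The FMOD level was 2.67-fold (2.61 to 2.72) higher in blood than in bone marrow and 12.6-fold (12.1 to 13.1) higher in blood than in adipose tissue. The basement membrane and cartilage protein PRELP stood at 5.06 CPM in bone marrow, 44.5 CPM in blood and 16.9 CPM in adipose tissue. It was 8.78-fold (8.002 to 9.66) higher in blood than in bone marrow, the widest of its ratios, with no library at 50 CPM.

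Osteomodulin (OMD), a sulfated proteoglycan of mineralised tissue, was highest in bone marrow by a wide ratio against both other cultures. It stood at 86.1 CPM in bone marrow, 13.4 CPM in blood and 8.68 CPM in adipose tissue. The ratio was 6.44 (6.06 to 6.85) for bone marrow over blood and 9.92 (9.23 to 10.7) for bone marrow over adipose tissue. Osteoblast markers were also higher in bone marrow, to unlike degrees. The 9 listed markers summed to 1267 CPM in the stromal-like cells of bone marrow, 120 CPM in those of blood and 95.8 CPM in those of adipose tissue. Most of that sum was SPP1 (osteopontin), at 1105 CPM in bone marrow, 83.7 CPM in blood and 60.7 CPM in adipose tissue. The bone homeobox gene DLX5 stood at 68.3 CPM in bone marrow, 0.153 CPM in blood and 0.159 CPM in adipose tissue. SP7, a transcription factor of bone-forming cells, stood at 30.4 CPM in bone marrow, 0.882 CPM in blood and 1.33 CPM in adipose tissue. IBSP, which encodes a sialoprotein of mineralising bone, stood at 6.56 CPM in bone marrow, 0.0118 CPM in blood and 0.0530 CPM in adipose tissue. RUNX2, an earlier bone transcription factor, differed less, at 56.4 CPM in bone marrow, 34.9 CPM in blood and 33.3 CPM in adipose tissue. The other 4 markers gave no usable comparison: ALPL, BGLAP and PHEX were at or under 0.365 CPM in every library, and DMP1 had no UMI. The part of these genes in the OMD result was not tested.

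Osteoglycin (OGN), the class III member, also known as mimecan and a regulator of collagen fibril growth, had another order again. It stood at 156 CPM in bone marrow, 87.4 CPM in blood and 127 CPM in adipose tissue. Its widest ratio was 1.78 (1.74 to 1.83), in bone marrow over blood, and no pair of libraries was apart. Only DCN and OGN met the 2-fold rule in none of the comparisons while reaching 50 CPM in every library.

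**Figure D1:**
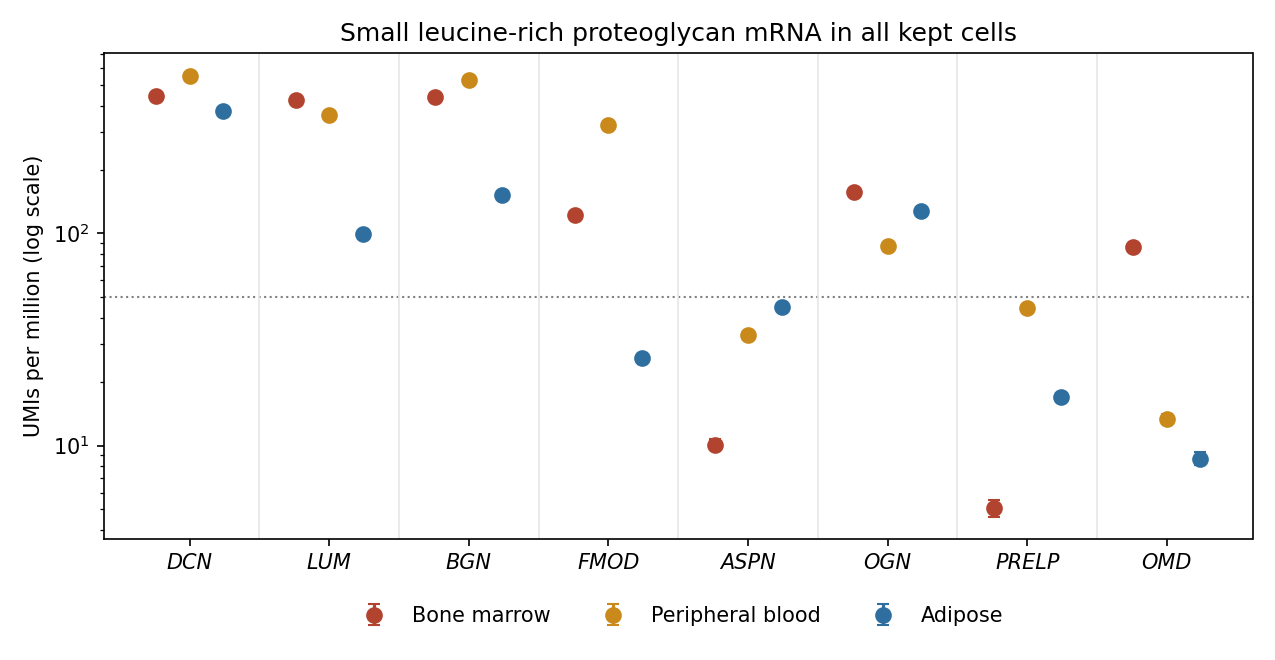
Level of each gene (CPM over all kept cells, log scale) in bone marrow, peripheral blood and adipose tissue, 1 library each; bars are exact 95% counting intervals and are mostly smaller than the points, and the dotted line marks 50 CPM. LUM, BGN and FMOD are lowest in adipose tissue, OMD is highest in bone marrow at 86.1 CPM, and ASPN and PRELP are lowest in bone marrow at 10.1 and 5.06 CPM.

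Counted together, bone marrow over blood had 6 members at 50 CPM or more in the higher library. OMD was 2-fold higher in bone marrow, 1 member where 3.86% of the 3131 genes tested were, and FMOD was 2-fold higher in blood, 1 member where 3.90% of genes were. Bone marrow over adipose tissue also tested 6 members, of which LUM, BGN, FMOD and OMD were higher in bone marrow, 4 members against 4.35% of 3174 genes, and 0 were higher in adipose tissue, against 2.55% of genes. Blood over adipose tissue tested 5 members, of which LUM, BGN and FMOD were higher in blood, 3 members against 3.83% of 3161 genes, and 0 were higher in adipose tissue, against 1.20% of genes. The median log2 ratio of the tested members was -0.02 for bone marrow over blood, 1.82 for bone marrow over adipose tissue and 1.80 for blood over adipose tissue. Over all genes tested it was 0.02, -0.10 and -0.13 for the same 3 comparisons. With no minimum CPM, ASPN and PRELP also passed as higher in blood than in bone marrow and as higher in adipose tissue than in bone marrow, and PRELP as higher in blood than in adipose tissue. The total was then 4 members for bone marrow over blood, 6 for bone marrow over adipose tissue, of which 2 were higher in adipose tissue, and 4 for blood over adipose tissue. The share of all genes that passes without the minimum was not computed, so these totals have no background to be read against. The comparisons share libraries and are not independent of each other.

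Members that lie side by side in the genome did not share an order between the cultures. By RefSeq gene order (ARS-UCD2.0, used for names and neighbours only), OGN, OMD, ASPN and ECM2 follow one another, LUM lies beside DCN, and FMOD beside PRELP. In the run of 4, OGN was highest in bone marrow and lowest in blood, OMD was highest in bone marrow and lowest in adipose tissue, and ASPN was highest in adipose tissue and lowest in bone marrow. ECM2, a matrix protein with leucine-rich repeats, stood at 40.7 CPM in bone marrow, 27.7 CPM in blood and 6.36 CPM in adipose tissue. These 4 genes lie within the annotated span of the centromere gene CENPP, whose level was nearly flat at 40.4 CPM in bone marrow, 36.5 CPM in blood and 40.0 CPM in adipose tissue. The sources used here do not say whether counting used strand. DCN differed up to 1.47-fold between libraries and LUM up to 4.30-fold, and KERA, the corneal member beside LUM, had no UMI. Beside PRELP and FMOD, OPTC stayed at or under 0.123 CPM.

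In single cells, detection was compared after thinning each kept cell to 3000 UMIs, which removed no cell. In stromal-like cells DCN had a UMI in 68.8% of bone marrow, 71.1% of blood and 62.3% of adipose cells. BGN was detected in 70.9% of bone marrow, 77.0% of blood and 32.2% of adipose cells, and LUM in 69.8%, 63.1% and 23.0% in the same order. FMOD had a UMI in 29.1% of bone marrow, 58.3% of blood and 6.78% of adipose cells. OMD was found in 21.8% of bone marrow cells, 3.95% of blood cells and 2.41% of adipose cells. ASPN was found in 3.18% of bone marrow, 7.25% of blood and 8.78% of adipose cells, and PRELP in 1.42%, 11.8% and 5.04% in the same order. Without thinning the shares were higher, for example 93.3% of bone marrow, 98.8% of blood and 95.5% of adipose stromal-like cells for DCN. At the same depth, macrophage-like bone marrow cells had a UMI of FMOD in 2.34%, of BGN in 4.29%, and of ASPN, PRELP and OMD in 0 of 513 cells (upper bound 0.717%). The PRELP share in stromal-like bone marrow cells, 1.42% (1.18 to 1.70), lay above that bound by less than 1 percentage point. Median depth before thinning was 5874 UMIs in the macrophage-like cells and 9107 in the stromal-like cells of bone marrow.

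A stromal-like cell had UMIs of a median of 3 members in bone marrow, 3 in blood and 2 in adipose tissue, at means of 2.96, 3.13 and 1.66. No member was seen in 1.72% of bone marrow, 1.19% of blood and 13.7% of adipose cells. No cell had all 8, and the most in 1 cell was 7 in bone marrow, 7 in blood and 6 in adipose tissue. Most bone marrow and blood cells thus carried several members at once at this depth, and adipose cells carried fewer. Of the family's UMIs, DCN made 26.2% in bone marrow, 28.4% in blood and 44.2% in adipose tissue. OGN made 9.25%, 4.49% and 14.96% in the same order. The variance of UMIs over their mean, which is 1 for counts spread at random over cells, was 1.47 in bone marrow, 2.01 in blood and 1.43 in adipose tissue for DCN. For ASPN it was 1.07 in bone marrow, 1.64 in blood and 1.83 in adipose tissue, and for PRELP 1.04, 1.06 and 0.993 in the same order. ASPN was thus spread less evenly over the cells of blood and adipose tissue than at random. The PRELP ratio lay near 1 in each culture, but PRELP had a mean of only 0.0146 UMIs per bone marrow cell. At so few UMIs the ratio says little about spread. Between the stromal-like bone marrow clusters described below, PRELP spanned 10.3-fold.

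**Figure D2:**
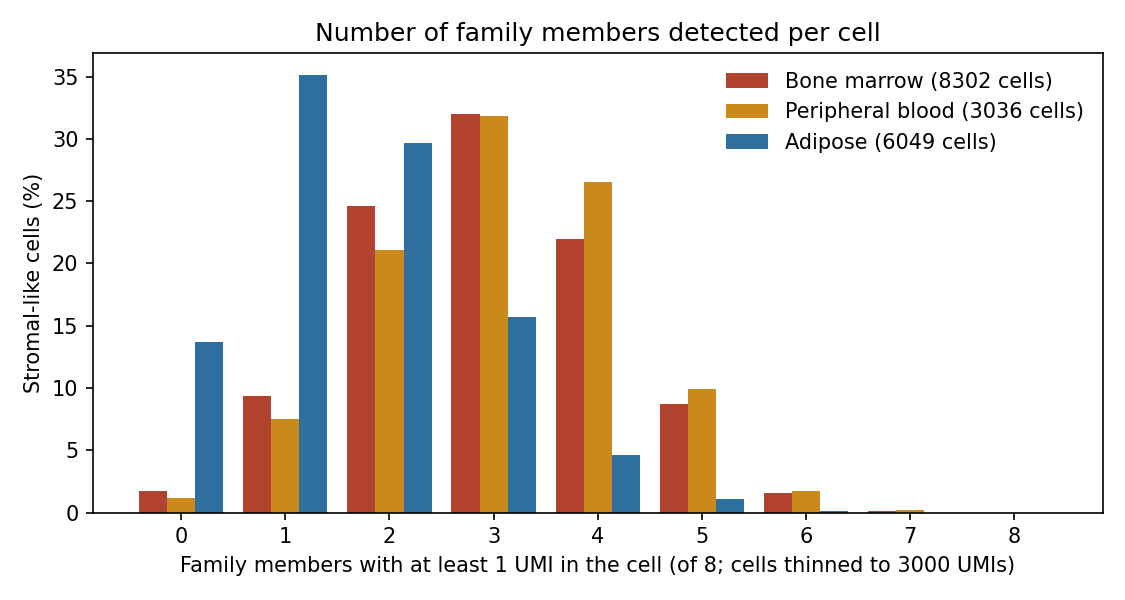
Share of stromal-like cells (%) by the number of the 8 genes with at least 1 UMI, after thinning each cell to 3000 UMIs, for bone marrow (8302 cells), peripheral blood (3036) and adipose tissue (6049). Bone marrow and blood peak at 3 members and adipose tissue at 1, with 13.7% of adipose cells at 0.

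Co-detection was read as an odds ratio over the stromal-like cells of a library, where 1 means that 2 genes share cells as often as their separate rates give. Cells of a library are not replicates, and no test was made. Of the 28 pairs, 0 in bone marrow, 2 in blood and 3 in adipose tissue reached an odds ratio of 2. At 6000 UMIs per cell these counts were 5 in bone marrow, 5 in blood and 4 in adipose tissue, and in G1 cells at 3000 UMIs they were 3, 1 and 1 in the same order. The 3 adipose pairs were those among the neighbouring genes OGN, OMD and ASPN. ASPN with OGN had 1.63 in bone marrow, 1.73 in blood and 2.87 in adipose tissue, and in adipose tissue OGN was found in 47.3% of cells with ASPN and 23.8% of cells without it. OGN with OMD had 1.79 in bone marrow, 1.97 in blood and 2.87 in adipose tissue. ASPN with OMD had 1.62 in bone marrow, 2.76 in blood and 2.58 in adipose tissue, on 81, 20 and 28 cells with both. The other blood pair was DCN with ASPN at 2.31. Spearman correlations of UMIs per cell were weak throughout, at most 0.16 over the 28 pairs and 3 libraries.

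The 3 neighbouring genes stayed above 1 when cells were compared only within clusters or only within cell cycle phases, at lower values. ASPN with OGN in adipose tissue gave 2.13 within clusters and 2.37 within phases. OGN with OMD within clusters gave 1.604 in bone marrow, 1.72 in blood and 2.36 in adipose tissue. Values above 1 within clusters were not particular to these neighbours. DCN with ASPN gave 1.62 in bone marrow, 1.40 in blood and 1.24 in adipose tissue. DCN with OMD gave 1.62, 1.33 and 1.28 in the same order. In bone marrow neither pair was below OGN with OMD. In blood LUM with ASPN gave 1.55, above ASPN with OGN at 1.36. The other neighbours, LUM and DCN, gave 1.41 in bone marrow, 1.48 in blood and 1.22 in adipose tissue over all stromal-like cells. FMOD and PRELP, also neighbours, gave 1.04 in bone marrow and 1.01 in blood, and in adipose tissue PRELP was found in 7.07% of cells with FMOD and 4.89% of cells without it.

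Some pairs were found in the same cell less often than their separate rates give. In bone marrow PRELP with OMD had an odds ratio of 0.379, with OMD in 9.32% of the 118 cells with PRELP, which is 11 cells with both, and in 22.0% of the cells without it. PRELP with OGN had 0.511 in bone marrow, on 22 cells with both, and 0.778 in blood. PRELP with ASPN had 0.585 in blood, on 16 cells with both, against 1.58 in adipose tissue. Within bone marrow clusters PRELP with OMD gave 0.503. BGN stayed near 1 with each of the other members, between 0.77 and 1.23 over its 7 pairs and 3 libraries.

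**Figure D3:**
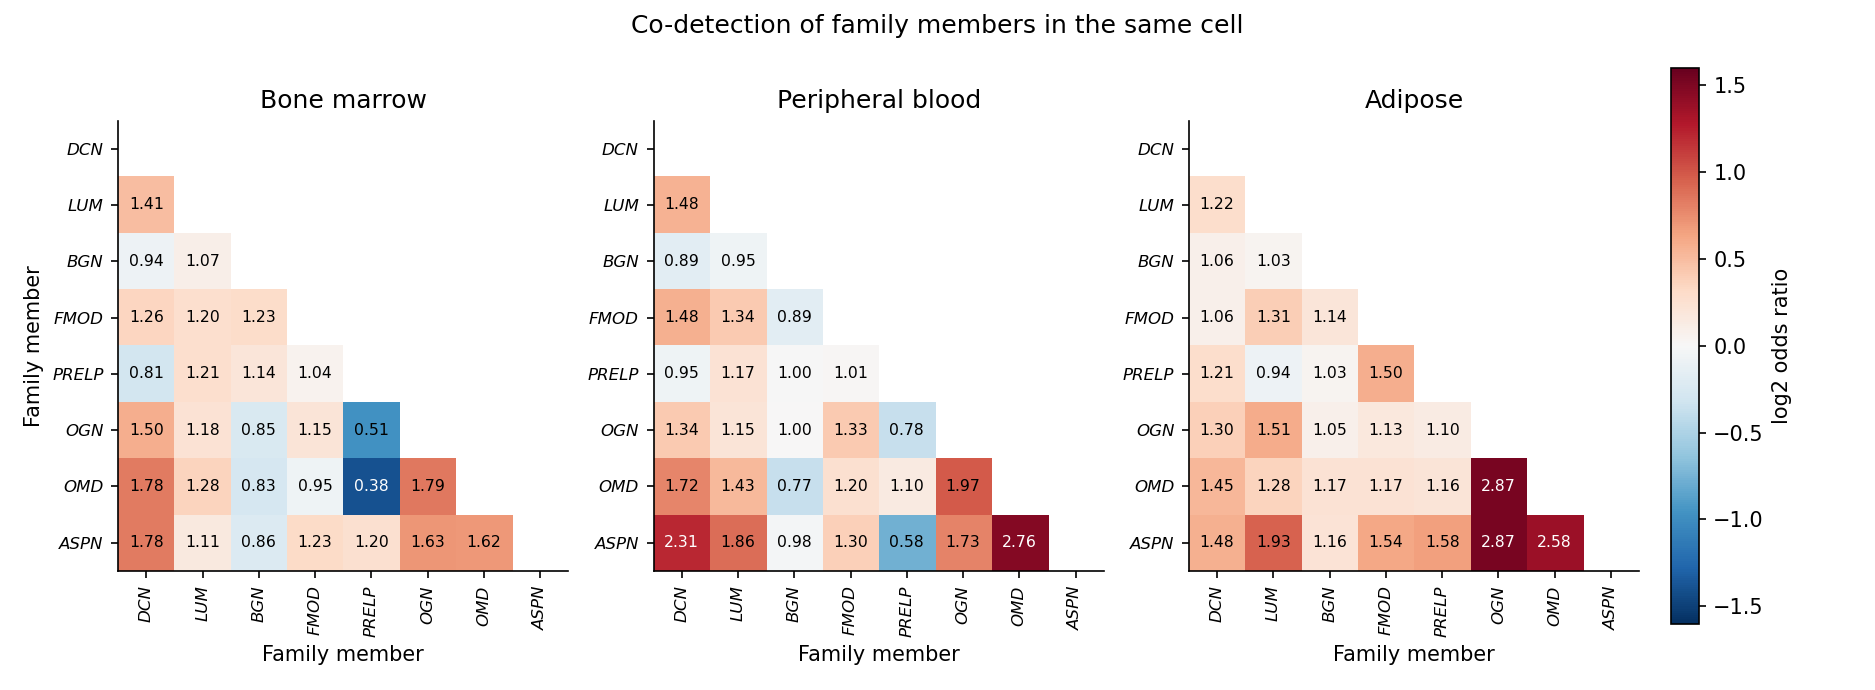
Odds ratio (printed; colour on a log2 scale) for detecting each pair of genes in the same stromal-like cell after thinning to 3000 UMIs, in bone marrow, peripheral blood and adipose tissue. The pairs among OGN, OMD and ASPN stand at the lower right, at 2.58 to 2.87 in adipose tissue, and PRELP with OMD in bone marrow is lowest at 0.38.

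Clusters were made without the 8 genes, at 17 stromal-like clusters in all, and show how the genes vary within a culture. In bone marrow, cluster 4 (751 cells, led by IGFBP5 and TINAGL1) stood apart. It had the lowest OGN of the 5 stromal-like bone marrow clusters at 40.3 CPM, against 155 to 214 CPM in the other 4. OMD was 27.5 CPM there, against 72.5 to 130 CPM, and FMOD 62.4 CPM, against 102 to 173 CPM. PRELP was 22.3 CPM in cluster 4 and 2.18 to 4.59 CPM in the other 4, and BGN was highest there at 562 CPM. The cluster with the most PRELP was thus the one with the least OMD. The osteoblast gene SP7 was also lowest in cluster 4, at 13.4 CPM against 28.6 to 38.9 CPM in the other 4. So were SPP1, at 500 CPM against 1063 to 1275 CPM, and RUNX2, at 47.4 CPM against 52.0 to 62.2 CPM. IBSP was lowest there too, at 0.266 CPM on 2 UMIs, against 3.45 to 13.7 CPM. DLX5 was the exception and, at 56.9 CPM, lay within the range of the other clusters, 52.3 to 103 CPM. Cluster 0, which had the highest OGN, OMD and FMOD, was 48.3% G1 by the phase calls described below. The share was 8.52% in cluster 4 and 0.108% to 4.45% in the rest.

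In blood the members divided in another way. In cluster 5 (352 cells, led by LRRN4CL and TIMP3) PRELP was highest at 77.2 CPM and BGN at 658 CPM, while DCN was lowest at 274 CPM and ASPN at 6.14 CPM. Cluster 4 (495 cells, led by MEOX1 and ALDH1A1) was close to it in BGN at 652 CPM and DCN at 275 CPM. The lowest OGN, OMD and FMOD were in cluster 4 and not in cluster 5, with OGN at 46.9 CPM in cluster 4 and 90.6 CPM in cluster 5, and with OMD at 6.098 CPM and FMOD at 231 CPM in cluster 4. In cluster 0 (622 cells, with ASPN and SFRP4 among its leading genes) DCN was 817 CPM, FMOD 483 CPM, ASPN 87.6 CPM, OGN 141 CPM and OMD 24.7 CPM, each the highest of the 6, while BGN was the lowest at 458 CPM. The level of ASPN therefore spanned 14.3-fold between blood clusters and that of BGN 1.44-fold. The clusters also differed in phase: 56.9% of cluster 0 was called G1, against 6.67% of cluster 4, 31.5% of cluster 5 and 0 to 19.5% of the rest. The part of phase in these levels was not tested.

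In adipose tissue, cluster 3 (1179 cells, led by ASPN and the smooth muscle actin gene ACTA2) had ASPN at 120 CPM, OGN at 219 CPM and DCN at 492 CPM. Cluster 4 (828 cells, led by ANKRD1 and ACTA2) had ASPN at 65.0 CPM and OGN at 168 CPM. The 3 clusters led by mitotic or histone genes had ASPN between 13.0 and 23.9 CPM and OGN between 79.8 and 97.9 CPM. LUM was 153 CPM in clusters 3 and 4 alike and 62.8 to 72.7 CPM in those 3. BGN was flat over these 5 clusters, at 142 to 159 CPM. A further cluster of 23 cells, led by ACTG2 and CALCB, had the lowest DCN at 193 CPM and BGN at 74.1 CPM and no PRELP UMI. Of the cells of cluster 3, 69.6% were called G1, against 0 to 2.32% of each of the other 4 large clusters. Cluster 3 was thus largely the same division as the G1 call. Cluster 4, at 2.17% G1, had higher ASPN, OGN and LUM than the 3 clusters led by mitotic or histone genes, at a like share of G1.

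**Figure D4:**
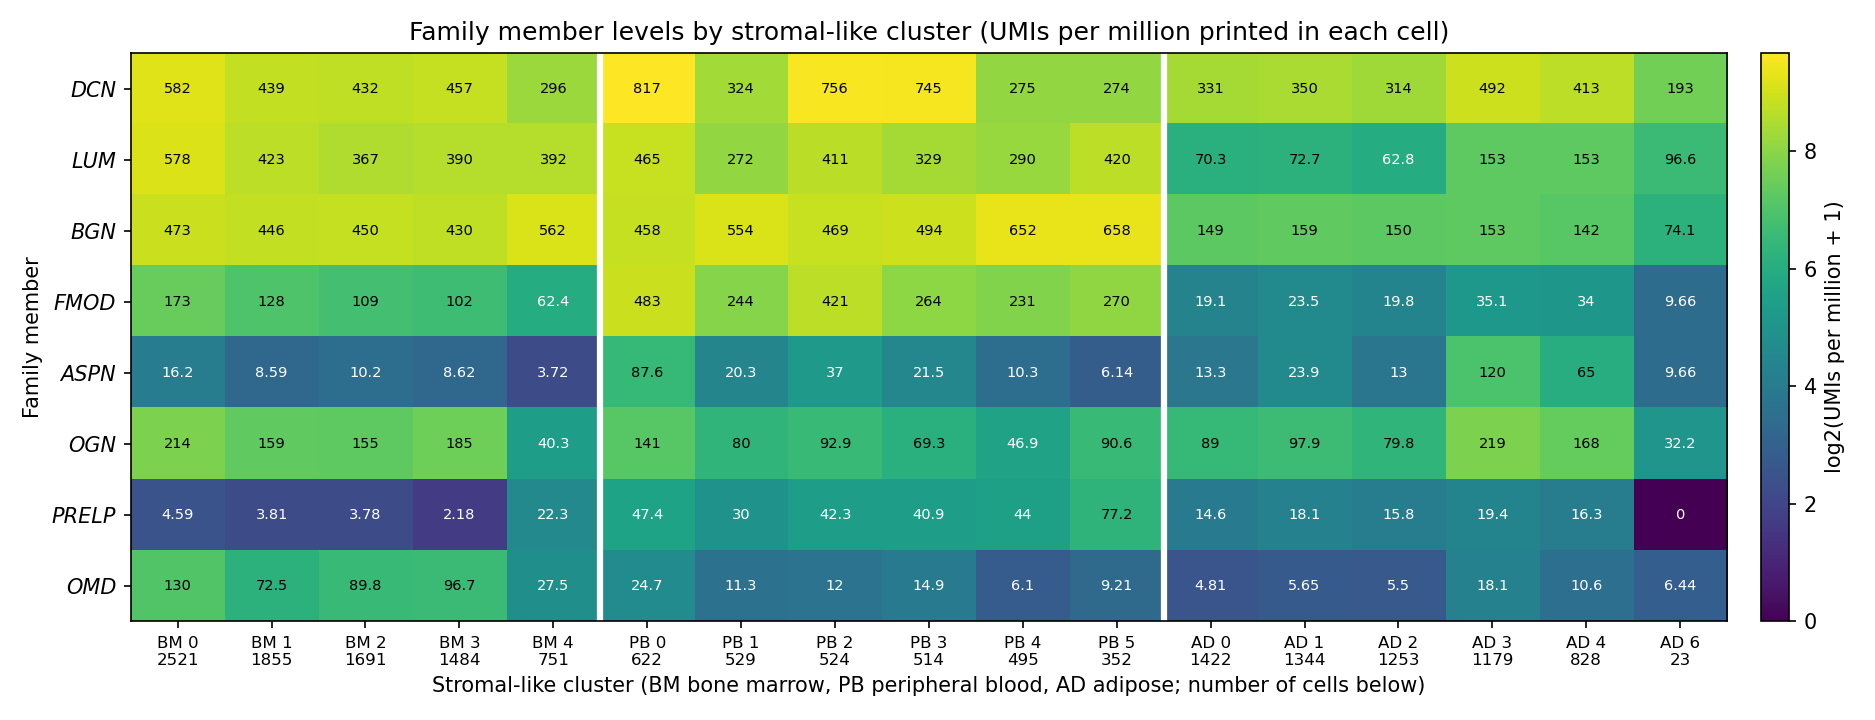
Level of each gene (CPM, printed; colour is log2 of the level plus 1) in the 17 stromal-like clusters of bone marrow (BM), peripheral blood (PB) and adipose tissue (AD), with the number of cells below each. BM 4 has low OGN and OMD with PRELP at 22.3 CPM, PB 5 has PRELP at 77.2 CPM, and ASPN is highest in AD 3 at 120 CPM.

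Phases were called from the expression of 38 S and 52 G2/M genes, and are calls rather than measured cycling. Stromal-like cells called G1 numbered 1355 in bone marrow, 687 in blood and 906 in adipose tissue. The family sum in these cells was 2396 CPM in bone marrow, 2457 CPM in blood and 1252 CPM in adipose tissue. In S and G2/M cells it was 1655 to 1696 CPM in bone marrow, 1846 to 1853 CPM in blood and 768 to 782 CPM in adipose tissue. Every member was highest in G1 in bone marrow and blood, and 7 of 8 in adipose tissue, where BGN was highest in S cells. Some of these differences were within or near counting error. The level in G1 over that in S and G2/M was 1.22 (0.958 to 1.54) for PRELP in bone marrow and 0.985 (0.941 to 1.03) for BGN in adipose tissue. BGN in blood was 548 CPM in G1 and 542 CPM in S cells. Median depth was lower in G1 than in G2/M cells, at 8439 against 9989 UMIs in bone marrow, 22382 against 27639 in blood and 14385 against 14522 in adipose tissue.

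The members differed in how far they followed the phase. ASPN was 2.07-fold (1.79 to 2.40) higher in G1 than in S and G2/M cells of bone marrow, 3.49-fold (3.24 to 3.76) in blood and 4.62-fold (4.35 to 4.91) in adipose tissue. OMD was 1.78-fold higher in G1 in bone marrow, 2.58-fold in blood and 2.93-fold in adipose tissue, and OGN was 1.54-fold, 1.95-fold and 2.13-fold in the same order. The 3 neighbouring genes thus had their smallest G1 ratio in bone marrow and their largest in adipose tissue. DCN was 1.38-fold to 1.48-fold higher in G1 in all 3 libraries. BGN was 1.10-fold, 1.03-fold and 0.985-fold in bone marrow, blood and adipose tissue, the smallest ratio of the 8 in each library.

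Of the members at 50 CPM or more in either phase group, 4 of 6 in bone marrow were at least 1.5-fold higher in G1, where 3.69% of 3039 genes were. The count was 2 of 7 in blood, where 2.82% of 3045 genes were, and 3 of 5 in adipose tissue, where 3.32% of 3101 genes were. The median log2 G1 ratio of these members was 0.63 in bone marrow, 0.46 in blood and 0.79 in adipose tissue, beside -0.07, -0.05 and -0.05 over all genes. With levels below 50 CPM counted too, 5 of 8 members reached 1.5-fold in bone marrow. When cells were thinned to 3000 UMIs before phases were called, that bone marrow count was 2, namely OMD and ASPN. ASPN was under 50 CPM there, at 19.0 CPM in G1 cells without thinning, so OMD alone was left of the 4 above. No share of all genes was computed for either count. The log2 ratios after thinning were 0.52 for DCN, 0.57 for LUM, 0.48 for FMOD, 0.57 for OGN, 0.72 for OMD and 0.78 for ASPN. With the same thinning, PRELP in bone marrow (-0.08) and BGN in blood (-0.02) were no longer higher in G1.

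Phase makeup differed between cultures, so the tissues were also compared within G1 cells. There ASPN stood at 19.0 CPM in bone marrow, 77.6 CPM in blood and 135 CPM in adipose tissue. It was 7.09-fold higher in adipose tissue than in bone marrow and 4.09-fold higher in blood than in bone marrow. Both ratios met the 2-fold rule with its 50 CPM minimum, which ASPN did not meet over all kept cells. OGN was nearly equal in G1, at 238 CPM in bone marrow and 232 CPM in adipose tissue, with 146 CPM in blood. OMD kept its order, at 146 CPM in bone marrow, 26.5 CPM in blood and 19.7 CPM in adipose tissue. PRELP in G1 was 6.38 CPM in bone marrow, 50.2 CPM in blood and 20.4 CPM in adipose tissue. It just reached the minimum in blood and was apart there from both other cultures.

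**Figure D5:**
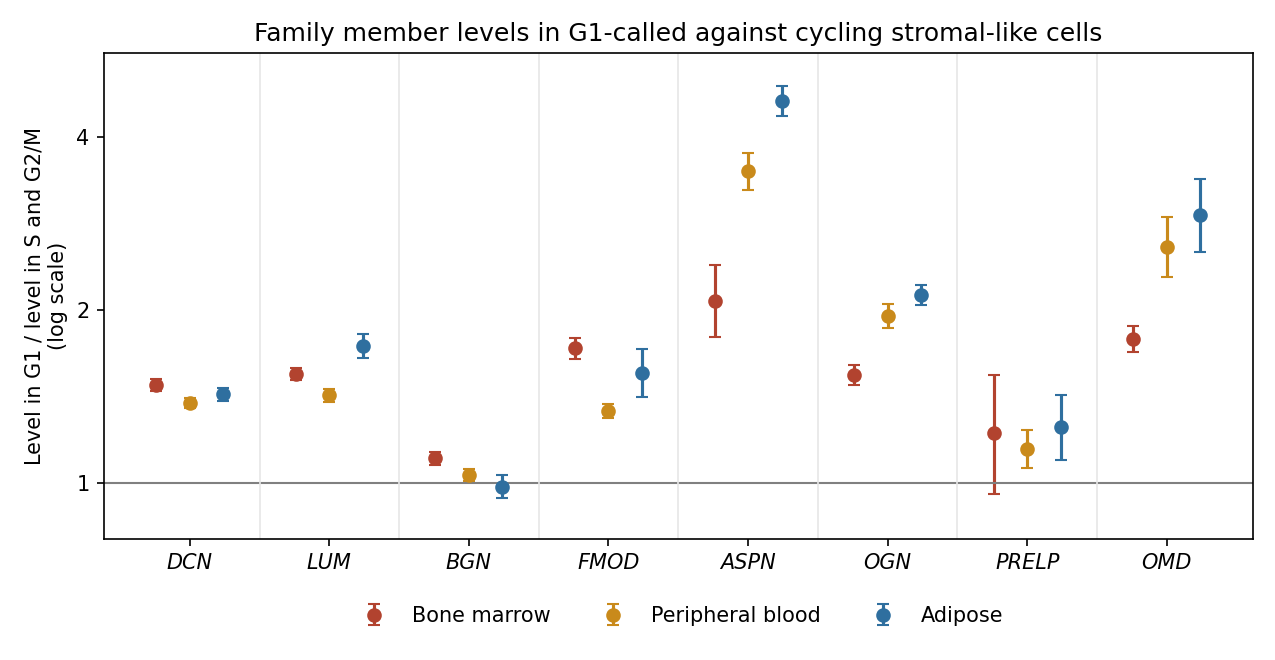
Level in stromal-like cells called G1 divided by that in cells called S or G2/M (log scale), for each gene in bone marrow, peripheral blood and adipose tissue; bars are exact 95% counting intervals and the line marks 1. ASPN reaches 4.62 in adipose tissue, while BGN lies at 1.10, 1.03 and 0.985.

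The genes most like each member over the 17 stromal-like clusters were found by Pearson's r of log2(CPM + 1). Clusters share their library's depth and tissue, so these values are descriptions. OMD was followed most closely by GPC1 (r = 0.96), UNC5B (0.95) and INSC (0.93), and FMOD by ITGA1 (0.95), B2M (0.95) and MDFIC (0.95). PRELP was followed by NTN4 (0.95), PXDN (0.94) and FERMT2 (0.94), and BGN by FXYD6 (0.96), APOA1 (0.96) and NT5E (0.95). LUM was followed by C15H11orf96 (0.96), PRSS23 (0.95) and APOA1 (0.95). DCN, ASPN and OGN had looser matches. The closest were FKBP7 (0.86), TCF7L2 (0.83) and CXCL2 (0.80) for DCN, CXCL16 (0.88), CTSK (0.87) and CTSB (0.87) for ASPN, and ME1 (0.84), C24H18orf32 (0.79) and SARS1 (0.79) for OGN. Without the 23-cell cluster another gene came first for each of the 8 members, DCN now with GPX7 (0.93) and ASPN with LEPROTL1 (0.93), while OMD kept the same 3 genes in another order. Among the members, BGN and FMOD had r = 0.89, BGN and LUM 0.87, and FMOD and LUM 0.85, while PRELP and OMD had -0.42, and -0.72 without the 23-cell cluster. These r pool the libraries, and BGN, FMOD and LUM were all lowest in adipose tissue. Within bone marrow, cluster 4 had the highest BGN (562 CPM) and the lowest FMOD (62.4 CPM). Within blood, cluster 0 had the lowest BGN (458 CPM) and the highest FMOD (483 CPM). In adipose tissue both were lowest in the 23-cell cluster.

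The rest of the family was little detected. Of 10 further small leucine-rich proteoglycans, 0 reached 50 CPM in any library. ECM2 and tsukushi (TSKU, an extracellular regulator of BMP and Wnt signals), at 20.1 CPM in bone marrow, 19.6 CPM in blood and 24.8 CPM in adipose tissue, were the only ones over 1 CPM, and KERA and CHADL had no UMI. Of 13 fibrillar and associated collagens, 9 reached 50 CPM. In bone marrow over blood, 0 were 2-fold higher in bone marrow, and COL3A1, COL6A1 and COL14A1 were 2-fold higher in blood. COL14A1 was also higher in adipose tissue than in bone marrow, and COL1A1, COL1A2 and COL3A1 were higher in blood than in adipose tissue. COL1A1 stood at 3807 CPM in bone marrow, 5902 CPM in blood and 2125 CPM in adipose tissue. COL11A1, named after its values were seen and just under the minimum, stood at 49.1 CPM in bone marrow, 30.0 CPM in blood and 0.369 CPM in adipose tissue. In stromal-like cells alone it passed the minimum and was higher in bone marrow than in adipose tissue.

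Most genes that build the sugar chains were below the minimum and were not compared. Of 23 genes for the linkage and chains of chondroitin and dermatan sulfate, 3 reached 50 CPM (B3GAT3, CHSY1 and DSE) and 0 were apart in any comparison. Of 10 keratan sulfate genes, B4GALT1 alone was tested, at 89.1 CPM in bone marrow, 52.8 CPM in blood and 52.6 CPM in adipose tissue, and was not apart, and 0 of 5 tyrosine sulfation genes reached 50 CPM. Of 11 proteinases that cut the family, MMP2, MMP14 and HTRA1 were tested, and MMP2 was apart once, at 630 CPM in bone marrow against 1472 CPM in blood. Of 20 receptors and ligands, 4 to 6 were tested. Among them BMP2 stood at 179 CPM in bone marrow, 16.7 CPM in blood and 3.48 CPM in adipose tissue, and TGFB1 at 95.1, 41.3 and 45.3 CPM in the same order. The integrin subunit gene ITGA1 stood at 31.2 CPM in bone marrow, 101 CPM in blood and 16.5 CPM in adipose tissue, the same order as FMOD.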

How the data were processed

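The deposited values are counts: whole UMIs per gene and barcode that the authors obtained with Cell Ranger (6.1.1 in the submitters' processing notes, 4 per the file headers; not settled). The build in those notes is ARS-UCD1.2. The matrices hold all barcodes. A barcode was kept as a cell at or above a threshold, the 99th percentile UMI total of the top 3000 barcodes divided by 10, which gave 4414 UMIs in bone marrow, 7489 in blood and 4438.5 in adipose tissue. The filters on cells (at least 500 genes, at most 20% mitochondrial UMIs) removed 0. Kept cells held 92.9%, 91.0% and 95.5% of 106322567, 98016815 and 99356868 UMIs. No doublet caller was run.

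Clustering was done library by library with scanpy 1.11.5 (2000 variable genes without the 8 members, 30 components, 15 neighbours, Leiden resolution 0.5). A class other than stroma needed 3 of its markers among a cluster's 50 leading genes, and such a cluster was mixed where its median share of stromal UMIs was at least 0.5 of the library's. Thinning drew 3000 UMIs per cell. Odds ratios had 0.5 added to each cell of the table and were read where both genes were found in 1% to 99% of cells. Ratios have exact binomial intervals, CPM exact Poisson intervals and shares Clopper-Pearson intervals, covering counting error only. There is no test, since each tissue has 1 library. Genes named beside the members are the 3 of highest r per member (at least 50 CPM in some cluster and 10 UMIs in every library) and, from each list, up to 5 of largest ratio per comparison. Listed genes named without being apart, and the osteoblast genes, were chosen after their values were seen. TMM factors (edgeR 4.0.16) and median-of-ratios factors (DESeq2 1.42.0) were alternatives. The ratio rule and the odds ratios were tested on simulated data. The members and lists were chosen with earlier results of these data known. No protein or promoter sequence was used here.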

Additional observations from a re-analysis of the deposited data

How the results depend on the processing

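No paired analysis was possible because each tissue has 1 library and no result comes from a test. The counts of members apart kept within 1.5 times of their values under all 10 alternatives in bone marrow over adipose tissue (4) and blood over adipose tissue (3). In bone marrow over blood the count was 2, and 4 with no minimum CPM. The split of these counts by direction changed where further members passed the rule. In all kept cells called G1, 5 members were apart in bone marrow over adipose tissue, 1 of them higher in adipose tissue. In the same cells 3 were apart in bone marrow over blood, 2 of them higher in blood. No share of all genes was computed for the counts in G1 cells or with no minimum CPM. Of 24 member ratios, 1 changed sign under some of 8 alternatives (OGN in bone marrow over adipose tissue, log2 0.30, and -0.27 in all kept cells called G1, which in bone marrow include macrophage-like cells). In those G1 cells 2 others moved over 1.5 times, both in bone marrow over adipose tissue: ASPN to -3.13 and OMD to 2.58 (log2). Scaling moved the median of all genes by at most 0.07 (log2). The median number of members per cell was 4 in bone marrow and 4 in blood after thinning to 6000 UMIs, and 4 in both in G1 cells, instead of 3. That depth left out 662 stromal-like cells of bone marrow and 146 of adipose tissue. Pairs with an odds ratio of at least 2 numbered 5 in bone marrow and 5 in blood at 6000 UMIs, and 3 in bone marrow, 1 in blood and 1 in adipose tissue in G1 cells. Members at least 1.5-fold higher in G1 in bone marrow numbered 2 with thinning before scoring (OMD and ASPN), instead of 5. The cause was not tested. Depth limits PRELP and ASPN in bone marrow and pairs with under 20 shared cells. The odds ratios within clusters or phases, and the use of the finer clusters for levels and like genes, were chosen after seeing the data.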

Other observations

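The cells that carried both macrophage and stromal genes held the family at levels between those of their neighbours. In the 466 mixed bone marrow cells the 8 genes summed to 1311 CPM, beside 1785 CPM in the stromal-like and 40.2 CPM in the macrophage-like bone marrow cells. DCN made 25.6% of the family's UMIs in the mixed cells and 26.3% in the stromal-like cells. Their median depth was 14242 UMIs, against 9107 in stromal-like cells. In blood, the 81 cells called mixed at the finer clustering summed to 1675 CPM at a median of 30981 UMIs, beside 1975 CPM and 24925 UMIs in stromal-like cells.

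At the finer clustering, 1 bone marrow cluster of 882 cells was led by OMD, although the 8 genes took no part in the clustering. OMD stood at 190 CPM there, with DCN at 597 CPM and OGN at 225 CPM. Another cluster of 1006 cells, led by CLU and SERPINF1, had higher DCN at 707 CPM and OGN at 281 CPM, with OMD at 164 CPM. Among the 11 stromal-like bone marrow clusters at that resolution OMD ran down to 21.2 CPM.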
